A study of Mus musculus with 20 samples.

Results

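Genes that mark successive steps of adult neurogenesis and the cell cycle, 8 in all, were followed across 20 brain libraries: Eomes, Neurod1, Sox4, Sox11, Igfbpl1, Dcx, Mki67 and Top2a. They were chosen by name, 8 of 8 matched an Ensembl identifier, and they stand among 55487 gene entries. The libraries are poly(A) RNA of hippocampus or cortex from NMRI mice, an outbred stock, all of which had undergone olfactory bulbectomy, the surgical removal of the olfactory bulbs. Starting on day 14 after the operation, the mice received 1 of 2 human recombinant proteins through the nose, daily over 21 days: 6.4 µg of YB-1, a nucleic acid-binding cold shock protein, or 4 µg of HSP70, a heat shock chaperone. There were 5 libraries in each of hippocampus with YB-1, hippocampus with HSP70, cortex with YB-1 and cortex with HSP70. Unoperated or vehicle-treated mice were not analysed here, so the treatment comparison sets 1 protein at 1 dose against the other in operated mice.

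In the adult rodent hippocampus, new granule neurons arise in the dentate gyrus. Radial glia-like stem cells give rise to dividing intermediate progenitors, these exit the cell cycle as neuroblasts, and the neuroblasts mature into granule cells. Eomes (Tbr2) is a transcription factor of intermediate progenitors and Neurod1 drives the step to neurons. The SoxC factors Sox4 and Sox11 act in committed progenitors and immature neurons, Igfbpl1 is a secreted protein expressed by neuroblasts, and Dcx (doublecortin) binds microtubules in migrating and young neurons. Mki67 encodes the Ki-67 antigen of dividing cells and Top2a the topoisomerase that untangles sister chromatids in mitosis. Because the tissue was sequenced in bulk, fewer cells of a type and less RNA per cell cannot be told apart.

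Promoters are shown for Mki67 and Top2a, the 2 cell cycle genes among the markers. Sequences are the 250 bases upstream of the start in the RefSeq promoter table of GRCm38.p6, which held an entry for 7 of the 8 genes, all but Igfbpl1. Capitals mark CCAAT boxes (CCAAT or its reverse complement ATTGG) and cell cycle homology regions (the letters TTTGAA, the reverse complement TTCAAA, or the palindrome TTCGAA), elements known to lie in promoters of genes expressed in G2 and mitosis. The Mki67 promoter lies at chr7:135716380-135716629 and the Top2a promoter at chr11:99024190-99024439, both on the minus strand and printed 5′ to 3′.
Mki67: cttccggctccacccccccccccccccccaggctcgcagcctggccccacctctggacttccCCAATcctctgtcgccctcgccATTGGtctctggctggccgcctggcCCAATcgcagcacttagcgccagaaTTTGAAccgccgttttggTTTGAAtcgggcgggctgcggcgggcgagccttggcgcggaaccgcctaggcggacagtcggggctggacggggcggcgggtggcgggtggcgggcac
Top2a: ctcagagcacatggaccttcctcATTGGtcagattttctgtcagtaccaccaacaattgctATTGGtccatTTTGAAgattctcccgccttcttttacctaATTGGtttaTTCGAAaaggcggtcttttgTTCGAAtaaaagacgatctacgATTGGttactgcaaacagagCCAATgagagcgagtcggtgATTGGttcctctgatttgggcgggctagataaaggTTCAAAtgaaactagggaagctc
The Mki67 window held 3 CCAAT boxes and 2 cell cycle homology regions, and the Top2a window held 6 and 4, with no overlap between the motifs. Of the other markers' windows, Sox4 held 4 CCAAT boxes, Eomes 2, Sox11 1 box and 1 homology region, Dcx 1 box in 1 of its 2 entries, and Neurod1 neither motif. Of 32851 promoter windows of this length, 33.8% held a CCAAT box, 17.1% held a homology region and 6.02% held both. At least 2 homology regions were found in 1.98% of the windows.

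Library depth was 7236195 to 10166968 assigned reads in hippocampus with YB-1 and 7756835 to 13053910 with HSP70. Cortical libraries held 6414215 to 10763465 reads with YB-1 and 12283392 to 15148078 with HSP70, ranges that do not overlap, so depth and treatment cannot be told apart in cortex. Most regional markers that were called went with the tissue labels. Of 9 tested hippocampal pyramidal cell markers, 5 were called higher in hippocampus under YB-1 and 4 under HSP70. Of 13 cortical layer markers 7 and 8 were called lower and 1 and 2 higher. Over all 14616 genes tested, 3.3% were called higher and 3.21% lower under YB-1, and 4.85% and 3.76% under HSP70. Values below are CPM (read counts scaled to a common library size) by TMM, a normalization that aligns the bulk of genes between libraries, and a gene was called at an adjusted p under 0.05 in edgeR's quasi-likelihood test. The labels do not say which animal gave which library, so the p-values measure the spread between libraries.

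Igfbpl1 was the marker that separated hippocampus from cortex. Its level was 9.57-fold higher in hippocampus with YB-1 and 14.8-fold higher with HSP70, and no other tested marker was called. Between YB-1 and HSP70 no marker was called in either tissue, and neither was any other gene in edgeR's test. Mki67, Top2a and Eomes were near the detection limit in every group.

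**Figure D1:**
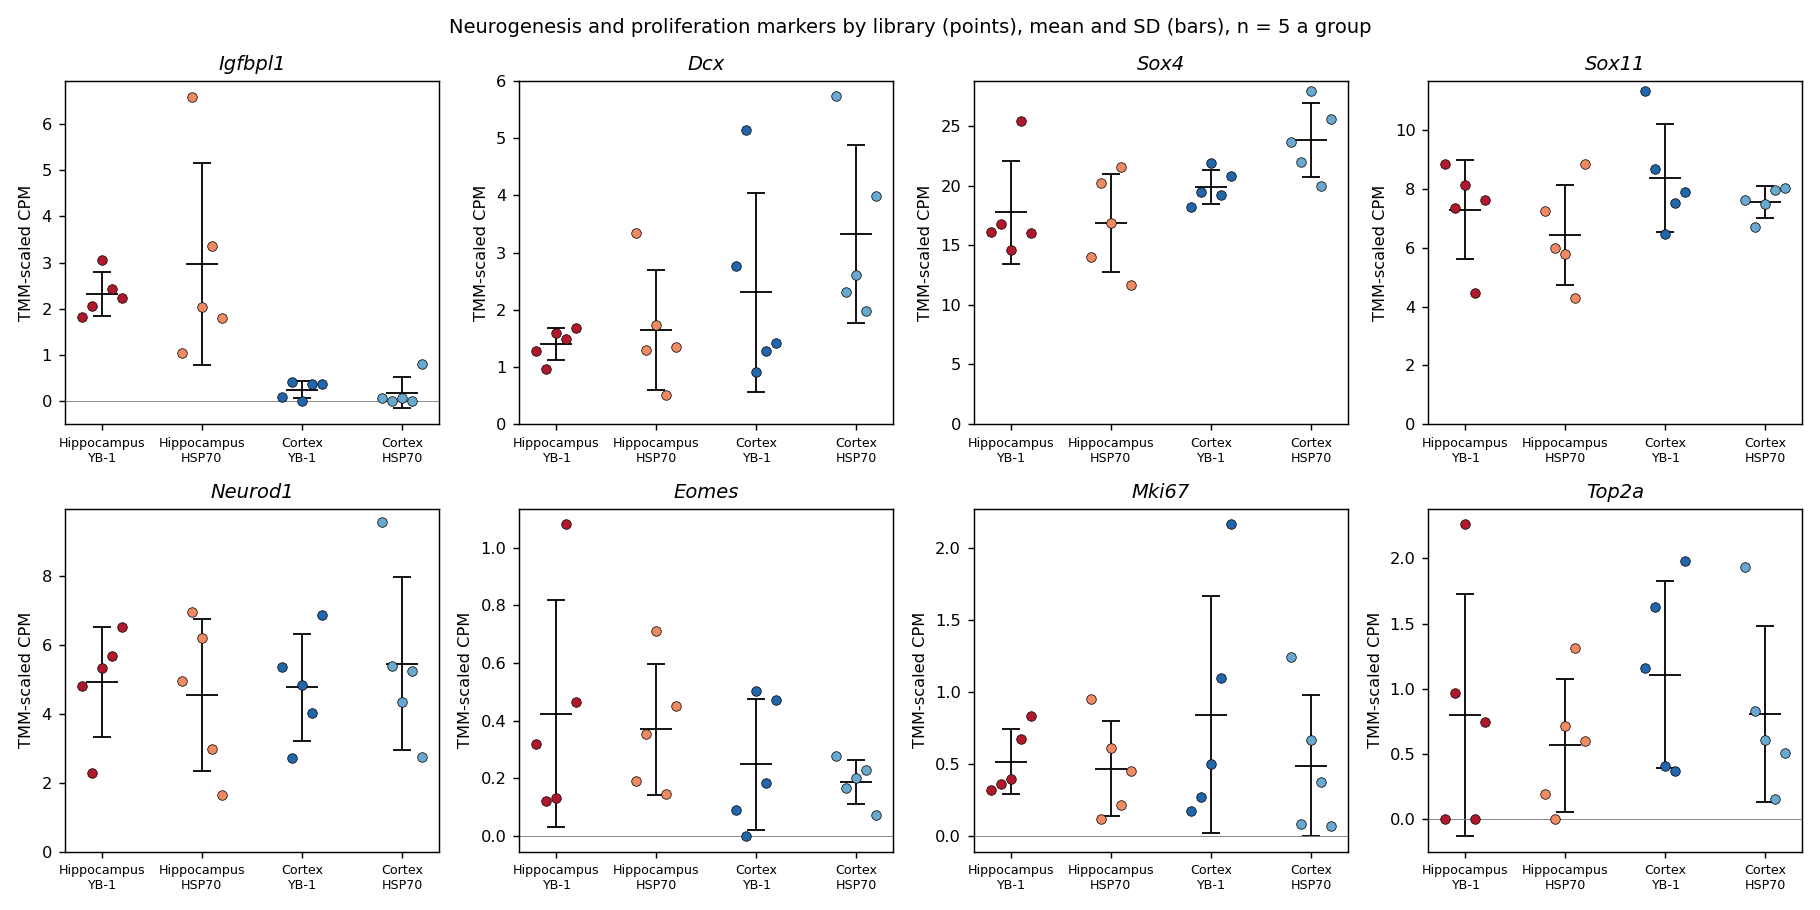
TMM-scaled CPM of the 8 markers (y axis, a separate scale for each gene) in hippocampus with YB-1, hippocampus with HSP70, cortex with YB-1 and cortex with HSP70 (x axis). Each point is 1 library, the horizontal mark is the mean and the bars are the SD of 5 libraries. The Igfbpl1 panel alone has hippocampal points that all lie above all cortical points, the lowest hippocampal library being at 1.05 CPM and the highest cortical one at 0.797 CPM.

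Igfbpl1 (ENSMUSG00000035551, chromosome 4) was at 1.82, 2.05, 3.06, 2.43 and 2.24 CPM in the hippocampal YB-1 libraries, against 0.0892, 0.406, 0, 0.367 and 0.377 CPM in the cortical YB-1 libraries. Under HSP70 it was at 1.05, 6.59, 2.03, 3.36 and 1.80 CPM in hippocampus, against 0.0692, 0, 0.0668, 0 and 0.797 CPM in cortex. All hippocampal libraries were above all cortical libraries of the same treatment, and hippocampus was higher in 5 of 5 pairs of equal number under each. Of all genes tested, 6.43% had groups that do not overlap, in either direction, under YB-1 and 8.74% under HSP70. The cortical groups rest on 10 reads with YB-1 and 13 with HSP70, of which 11 came from 1 library, and the hippocampal groups on 99 and 145. The 3 cortical libraries without a read allow up to 0.303, 0.248 and 0.228 CPM (3 reads each, for counting error only).

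The log2 fold change of Igfbpl1, hippocampus over cortex, was 3.26 ± 0.76 (SE) under YB-1 with an adjusted p of 0.00768 in edgeR's quasi-likelihood test. Under HSP70 it was 3.89 ± 0.73 with an adjusted p of 0.000688. The gene passed the filter on low counts through its hippocampal libraries. Of all 14616 genes tested, 6.51% were called under YB-1 (3.3% higher and 3.21% lower) and 8.61% under HSP70 (4.85% higher and 3.76% lower). The call held in all 6 other settings and without any 1 of the 10 libraries of the contrast, and under HSP70 the value was 5.94 without replicate 5 of cortex and 3.38 without replicate 2 of hippocampus. The difference between the treatments in this contrast was -0.63 ± 1.10, with an adjusted p of 1 and a 95% interval of -2.90 to 1.64.

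Markers of other cells moved with the tissue beside Igfbpl1. The summed level of the 8 choroid plexus markers was 138 to 1018 CPM in hippocampus with YB-1, against 10.3 to 47.1 CPM in cortex with YB-1. Under HSP70 it was 36.5 to 1659 CPM in hippocampus and 12.3 to 158 CPM in cortex, and no choroid plexus marker was at 0 throughout a group. The 7 ependymal markers summed to 30.4 to 70.02 CPM in hippocampus, against 13.1 to 22.4 CPM in cortex with YB-1, and to 25.6 to 79.2 CPM against 8.85 to 20.7 CPM with HSP70. The hippocampal library with the highest Igfbpl1, replicate 2 with HSP70, had a choroid plexus sum of 156 CPM and an ependymal sum of 25.6 CPM, the lowest ependymal sum of its group. The cortical library with the highest choroid plexus sum (158 CPM, replicate 4 with HSP70) had no Igfbpl1 read. The cortical library with the highest Igfbpl1 (0.797 CPM, replicate 5 with HSP70) had the highest ependymal sum of its group. That sum was 20.7 CPM, against 8.85 to 16.3 CPM in the others, and its choroid plexus sum was 23.6 CPM. The part of choroid plexus and ependymal cells in the Igfbpl1 values was not tested.

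Dcx, Sox4 and Sox11 averaged lower in hippocampus under both treatments, and none was called in edgeR's test. Dcx (ENSMUSG00000031285, chromosome X) was at 1.28, 0.966, 1.60, 1.49 and 1.68 CPM in hippocampus with YB-1, against 2.76, 5.15, 0.908, 1.28 and 1.41 CPM in cortex with YB-1. With HSP70 it was at 3.34, 1.295, 1.73, 0.511 and 1.35 CPM in hippocampus, against 5.74, 2.31, 2.61, 1.97 and 3.99 CPM in cortex. The ranges overlap in both treatments, and with HSP70 cortex was higher in 5 of 5 numbered pairs, with YB-1 in 2 of 5. The log2 fold change was -0.70 ± 0.48 under YB-1 (adjusted p = 0.547) and -1.01 ± 0.46 under HSP70 (adjusted p = 0.205, edgeR). With the pair as a block the HSP70 value was -1.09 ± 0.40, with an adjusted p of 0.0839.

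Sox4 (ENSMUSG00000076431, chromosome 13) was at 16.1, 16.8, 14.6, 25.4 and 16.0 CPM in hippocampus with YB-1, against 18.2, 19.5, 21.9, 19.2 and 20.8 CPM in cortex with YB-1. With HSP70 it was at 14.0, 20.3, 16.9, 21.6 and 11.7 CPM in hippocampus, against 23.7, 21.98, 27.99, 19.96 and 25.6 CPM in cortex. Hippocampal libraries were mostly the lower ones, in 4 of 5 numbered pairs under each treatment, with ranges that overlap. The log2 fold change was -0.17 ± 0.17 under YB-1 (adjusted p = 0.770) and -0.49 ± 0.17 under HSP70 (adjusted p = 0.0805, edgeR), so neither was called. The HSP70 value passed the threshold in DESeq2 (adjusted p = 0.0469), on counts thinned to the smallest library (0.0470) and without hippocampal HSP70 replicate 4 (0.0438).

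Sox11 (ENSMUSG00000063632, chromosome 12) was at 8.86, 7.36, 8.12, 4.46 and 7.64 CPM in hippocampus with YB-1, against 11.3, 8.67, 6.46, 7.52 and 7.91 CPM in cortex with YB-1. The HSP70 libraries were at 7.25, 6.01, 5.80, 4.30 and 8.85 CPM in hippocampus, against 7.61, 6.69, 7.48, 7.97 and 8.05 CPM in cortex. Both pairs of ranges overlap, and the 5 cortical HSP70 libraries lie closest together, with a variance 0.484 times that of counting alone. The log2 fold changes were -0.20 ± 0.22 under YB-1 and -0.24 ± 0.22 under HSP70 (adjusted p = 0.781 and 0.607, edgeR).

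Neurod1 (ENSMUSG00000034701, chromosome 2) had similar means in both tissues and a wide spread within each. It was at 4.81, 2.29, 5.32, 5.68 and 6.52 CPM in hippocampus with YB-1, against 5.35, 2.71, 4.84, 4.03 and 6.87 CPM in cortex with YB-1. The HSP70 libraries were at 4.96, 6.95, 6.21, 2.99 and 1.65 CPM in hippocampus, against 9.55, 5.37, 4.34, 5.24 and 2.75 CPM in cortex. The groups overlap, and the log2 fold changes were 0.04 ± 0.36 under YB-1 and -0.26 ± 0.36 under HSP70 (adjusted p = 0.982 and 0.766, edgeR).

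**Figure D2:**
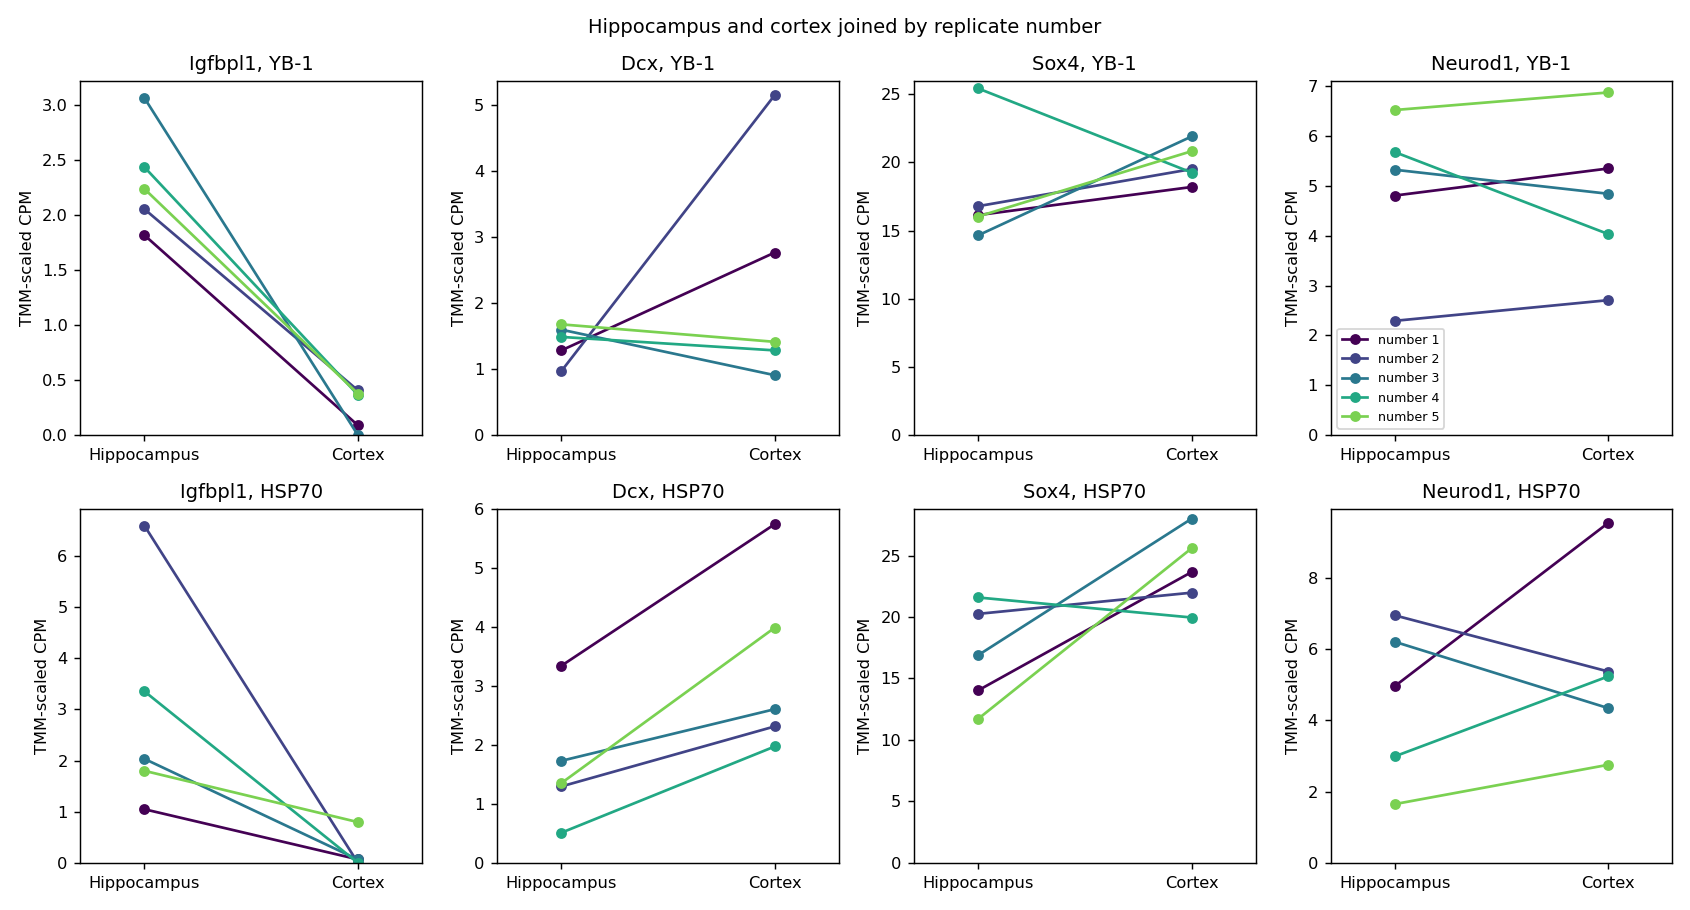
TMM-scaled CPM (y axis) of Igfbpl1, Dcx, Sox4 and Neurod1 in hippocampus and cortex (x axis), for YB-1 in the upper row and HSP70 in the lower row. Each line joins the 2 libraries of equal replicate number, which were taken to pair the tissues. All 10 Igfbpl1 lines run down to cortex and all 5 Dcx lines under HSP70 run up to it.

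Counting limits the reading of the other 3 genes. Eomes (ENSMUSG00000032446, chromosome 9) had 60 reads in the 20 libraries together, Mki67 (ENSMUSG00000031004, chromosome 7) had 119 and Top2a (ENSMUSG00000020914, chromosome 11) had 172. Eomes and Mki67 passed the filter on low counts in no comparison, and Top2a in the fit of all 4 groups only.

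Eomes was at 0.320, 0.121, 0.133, 1.08 and 0.466 CPM in hippocampus with YB-1, against 0.0892, 0, 0.504, 0.183 and 0.471 CPM in cortex with YB-1. The HSP70 libraries were at 0.191, 0.353, 0.712, 0.146 and 0.450 CPM in hippocampus, against 0.277, 0.165, 0.200, 0.228 and 0.0725 CPM in cortex. Under HSP70 3 of 5 hippocampal libraries lay above every cortical library, under YB-1 1 of 5, and the ranges overlap in both. A single library carried 1 to 8 reads where any were found. With no filter on low counts the log2 fold changes were 0.67 under YB-1 and 0.88 under HSP70 (adjusted p = 0.848 and 0.642 in edgeR).

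Mki67 was at 0.320, 0.362, 0.399, 0.676 and 0.838 CPM in hippocampus with YB-1, against 0.178, 0.271, 0.504, 1.10 and 2.17 CPM in cortex with YB-1. With HSP70 it was at 0.954, 0.118, 0.610, 0.219 and 0.450 CPM in hippocampus, against 1.25, 0.0826, 0.668, 0.379 and 0.0725 CPM in cortex. The ranges overlap everywhere. The highest values came from 2 cortical libraries, replicate 5 with YB-1 (23 reads) and replicate 1 with HSP70 (18 reads).

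Top2a was at 0, 0.966, 2.26, 0 and 0.745 CPM in hippocampus with YB-1, against 1.16, 1.63, 0.403, 0.367 and 1.98 CPM in cortex with YB-1. Its HSP70 libraries were at 0.191, 0, 0.712, 1.31 and 0.600 CPM in hippocampus, against 1.94, 0.826, 0.601, 0.152 and 0.507 CPM in cortex. The ranges overlap, and the libraries without a read allow up to 0.320 and 0.406 CPM with YB-1 and 0.353 CPM with HSP70. The log2 fold changes were -0.52 ± 0.82 under YB-1 and -0.45 ± 0.82 under HSP70 (adjusted p = 0.871 and 0.829, edgeR).

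The same 2 cortical libraries were high in T and NK cell markers and in other lists. Replicate 5 with YB-1 had the highest Mki67 of all libraries, the highest Top2a of its group and the highest sum of the 28 genes of G2 and M phase, 45.3 CPM, against 24.6 to 27.3 CPM in the other cortical YB-1 libraries. It also had the highest sum of the 11 T and NK cell markers, 49.8 CPM, against 14.7 to 35.8 CPM in the other cortical YB-1 libraries, and of the 10 B and plasma cell markers, 3563 CPM. Its sums were also the highest of its group for microglia, S phase genes and radial glia-like stem cells. They were 1847 CPM for microglia against 1000 to 1306 CPM in the others, and 118 CPM for S phase genes against 86.9 to 102 CPM. For radial glia-like stem cells the sum was 412 CPM against 233 to 314 CPM. Over the 5 cortical YB-1 libraries that list of 14 genes summed to 296 ± 71.9 CPM, of which Vim alone held 144 ± 65.3 CPM (mean and SD). Replicate 1 with HSP70 had the highest Top2a of its group and the highest T and NK cell sum, 37.8 CPM, against 13.8 to 33.002 CPM in the others of its group. It also had the highest Dcx and Neurod1 of all libraries, 5.74 and 9.55 CPM. Its sum of 12 genes of subventricular neuroblasts was 454 CPM, against 276 to 306 CPM in the others of its group. For G2 and M phase genes its sum was 31.4 CPM, against 24.5 to 26.9 CPM. Its B and plasma cell sum, 2521 CPM, was below the 3400 CPM of replicate 3, and its microglial sum, 987 CPM, lay within the 932 to 1299 CPM of its group. Other libraries went the other way. In cortex with YB-1, replicate 4 had 1.10 CPM of Mki67, below replicate 5 alone, and the lowest T and NK cell sum of its group, 14.7 CPM. The highest Top2a of all libraries, 2.26 CPM, was in replicate 3 of hippocampus with YB-1. Its T and NK cell sum was 18.4 CPM, in a group that ran from 14.1 to 29.4 CPM. Of the T and NK cell markers 10 had reads in each group and Ncr1 was at 0 in all. The part of these cells in the Mki67 and Top2a reads was not tested.

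Between treatments the markers overlapped in both tissues. In hippocampus 5 markers were tested and none was called, and no marker's groups were apart, as those of 0.474% of genes were. Across all 13723 genes tested 0% were called, with 2.4% at an unadjusted p under 0.05 in edgeR and none called by DESeq2 either. The log2 fold changes, YB-1 over HSP70, were -0.36 ± 0.44 for Igfbpl1, -0.22 ± 0.46 for Dcx, 0.07 ± 0.21 for Sox4, 0.19 ± 0.25 for Sox11 and 0.11 ± 0.37 for Neurod1. None had an unadjusted p under 0.05, and every adjusted p was 1. The 95% interval ran from -0.37 to 0.51 for Sox4, the narrowest, and from -1.197 to 0.75 for Dcx, the widest. The Igfbpl1 value was 0.15 without HSP70 replicate 2, that of Dcx 0.22 without HSP70 replicate 1, and that of Sox4 -0.09 without YB-1 replicate 4.

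In cortex 4 markers were tested, none was called and no marker's groups were apart (0.829% of genes), beside 0% of 14114 genes at the adjusted threshold and 5.48% at an unadjusted p under 0.05 (DESeq2 called 4 genes, none of them a marker). Log2 fold changes were -0.54 ± 0.44 for Dcx, -0.26 ± 0.15 for Sox4, 0.15 ± 0.20 for Sox11 and -0.19 ± 0.32 for Neurod1. Sox4 averaged 19.9 ± 1.44 CPM with YB-1 and 23.8 ± 3.12 CPM with HSP70 (SD, n = 5 each), and 3 of the 5 YB-1 libraries lay below every HSP70 library. Its unadjusted p was 0.0972 and its adjusted p 0.858 in edgeR. None of the 6 markers tested differed in its treatment effect between tissues, where 0% of 14616 genes passed and 1.55% had an unadjusted p under 0.05. A p that misses the threshold does not show that the treatments act alike: the cortical interval of Dcx ran from -1.46 to 0.38.

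**Figure D3:**
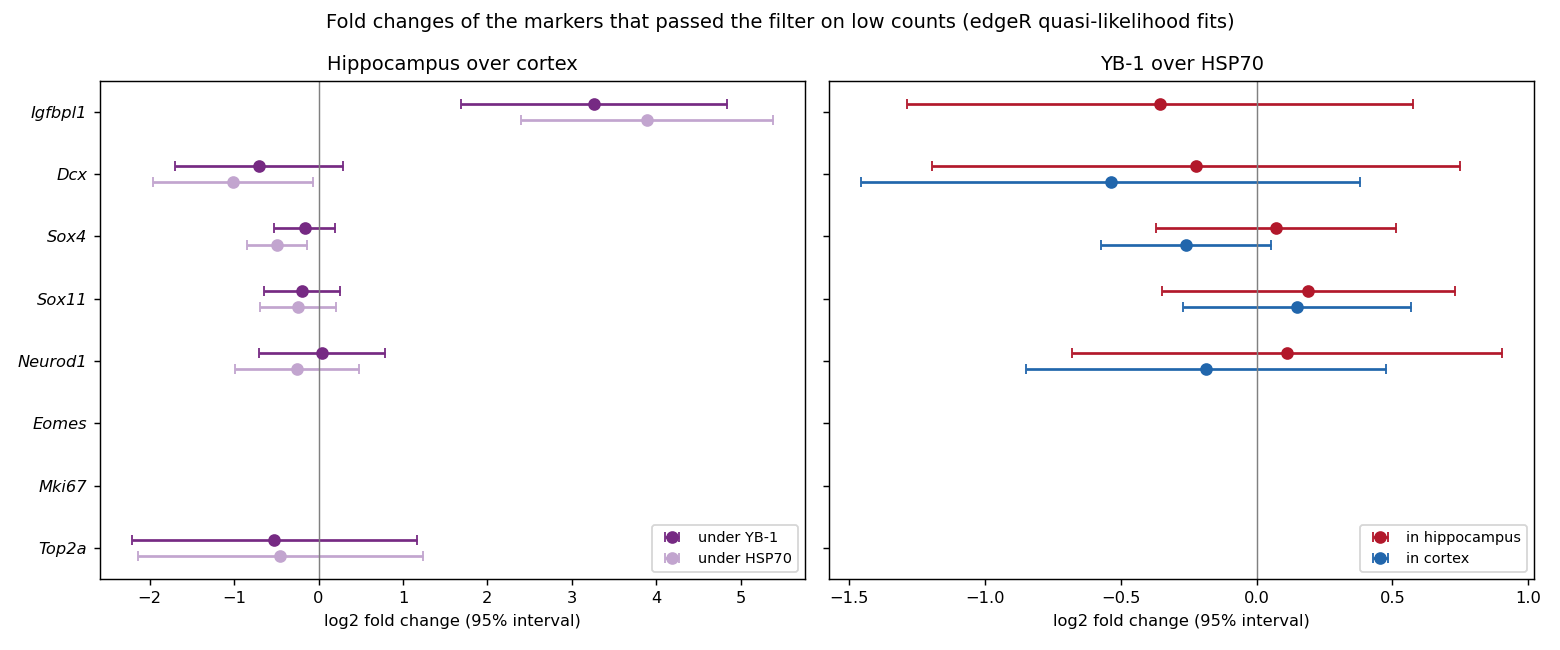
Log2 fold changes (x axis) of the markers (y axis) with 95% intervals, hippocampus over cortex on the left and YB-1 over HSP70 on the right. Eomes and Mki67 have no point because they did not pass the filter on low counts, Top2a has none on the right and Igfbpl1 has none for cortex. The Igfbpl1 intervals on the left start at 1.68 and 2.39, and all intervals on the right cross 0.

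Compared per length of exon sequence, Sox4 was the most abundant of the 8 in all 4 groups, at 3.71 ± 0.90 and 3.52 ± 0.86 CPM per kb in hippocampus with YB-1 and HSP70 (SD, n = 5 each), against 4.16 ± 0.30 and 4.97 ± 0.65 CPM per kb in cortex. Neurod1 came next in each group, at 1.80, 1.67, 1.74 and 1.997 CPM per kb in the same order. In hippocampus Sox11 and Igfbpl1 followed together, at 0.877 and 0.714 CPM per kb with YB-1 and 0.775 and 0.913 CPM per kb with HSP70, with ranges that overlap. In cortex Igfbpl1 was 7th of the 8 with YB-1 and 6th with HSP70, at 0.0762 and 0.0574 CPM per kb, a level that overlaps those of Top2a, Mki67 and Eomes. Dcx stood 5th in hippocampus and 4th in cortex, at 0.111 and 0.130 CPM per kb in hippocampus and 0.182 and 0.263 CPM per kb in cortex with YB-1 and HSP70, overlapping its next lower neighbour in every group. The ranges of Sox4 and Neurod1 overlapped in hippocampus with HSP70 alone, and those of Neurod1 and the gene below it in all groups but cortex with HSP70. By the length of the longest transcript, Igfbpl1 stood at 0.0865 and Mki67 at 0.0839 CPM per kb in cortex with YB-1, the other way round from the exon length.

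Among hippocampal libraries, those high in Sox11 were low in Sox4. Over 10 libraries Pearson's r of log2 CPM was -0.87 (permutation p = 0.00089, adjusted over 16 pairs of markers 0.0142), and Spearman's rho was -0.77 (permutation p = 0.0125, adjusted 0.200). Without the 2 libraries farthest from the median of Sox11, r was -0.69 (permutation p = 0.0561, adjusted 0.401), which no longer passed the threshold. Centred within each treatment r was -0.94 (adjusted permutation p = 0.00032). In cortex r was -0.46 with rho -0.45 (adjusted permutation p = 0.469 and 0.464), and no other pair of markers passed. Dcx and Igfbpl1, both markers of neuroblasts, had r = -0.52 and rho = -0.39 in hippocampus (adjusted permutation p = 0.469 and 0.464, n = 10), and r was -0.01 without the 2 farthest libraries.

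**Figure D4:**
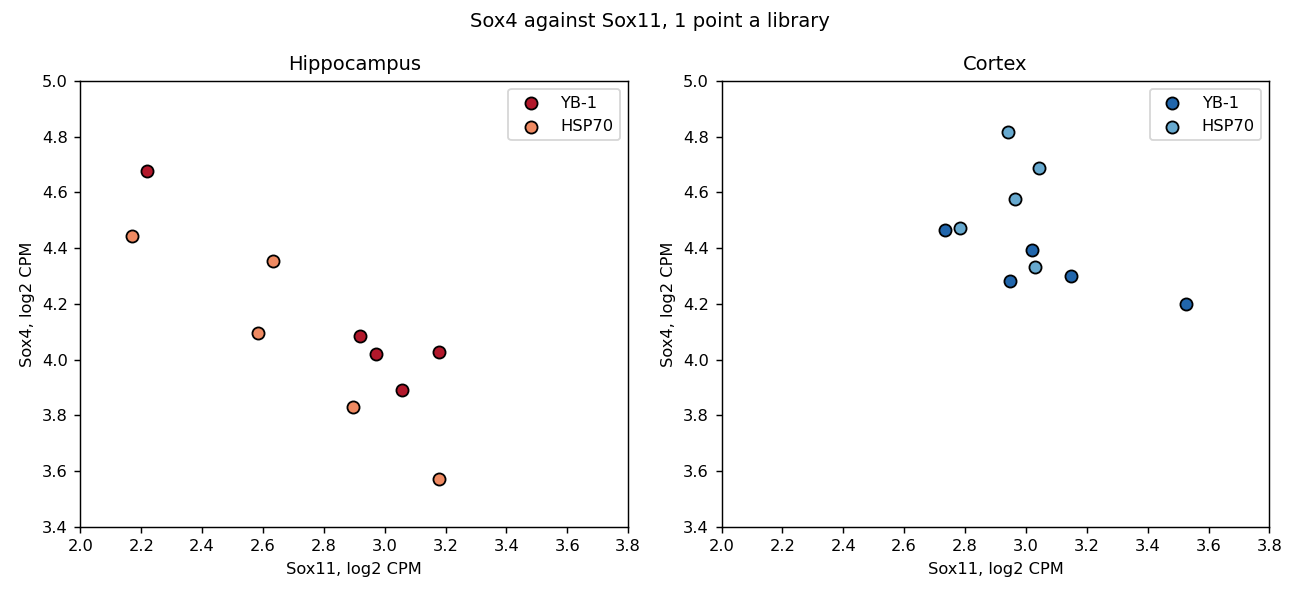
Log2 CPM of Sox4 (y axis) against Sox11 (x axis), 1 point a library, hippocampus on the left and cortex on the right, coloured by treatment. The hippocampal points fall along a descending line (r = -0.87, n = 10), with YB-1 replicate 4 and HSP70 replicate 4 at its upper left. Without the 2 libraries farthest from the median of Sox11, r was -0.69 (adjusted permutation p = 0.401). Cortical points had r = -0.46 (n = 10), and no test compared the 2 tissues' correlations.

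Levels of a marker in the 2 tissues were also compared over the 10 numbered pairs, 4 relations chosen after values were seen. Neurod1 had r = 0.68 (permutation p = 0.0309, adjusted 0.124) and rho = 0.52 (adjusted permutation p = 0.270), and r was 0.00 without the 2 farthest libraries. The other r values were -0.55 for Sox4, 0.26 for Sox11 and 0.18 for Dcx, with adjusted permutation p of 0.206, 0.605 and 0.621, and rho of -0.58, 0.41 and 0.03. Without the 2 farthest libraries their r values were -0.35, 0.40 and -0.83.

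The genes with the most similar pattern over the 20 libraries, after centring each of the 4 groups, are given as a description from 14616 genes compared. For Neurod1 they were Gas2 (r = 0.90), Pcdh19 (0.89) and Dynlt3 (0.87). Dcx was nearest to Mettl4 (0.85), Gatad2b (0.79) and Celf2 (0.76), Sox11 to Milr1 (0.83), Oas1b (0.79) and Rpl14-ps1 (0.78), and Sox4 to Cd302 (0.82), Lysmd2 (0.82) and Uqcrfs1 (0.77). Igfbpl1 was nearest to Pcbp1 (0.71), Anks3 (0.71) and Ppp5c (0.67), and Top2a to Cd40 (0.76), 6330409D20Rik (0.75) and Pcolce2 (0.73).

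Stem cell, young neuron and granule cell genes were among those called between tissues. Of 13 radial glia-like stem cell genes tested, 2 were called higher in hippocampus under each treatment and none lower. Of all 14616 genes tested, 3.3% were called higher and 3.21% lower under YB-1, and 4.85% and 3.76% under HSP70. Hopx, a stem cell regulator, was at 17.3 ± 3.402 CPM in hippocampus and 8.07 ± 1.302 CPM in cortex with YB-1 (log2 fold change 1.09 ± 0.21, adjusted p = 0.00107), and its log2 fold change with HSP70 was 1.25 ± 0.20 (edgeR). Id4, an inhibitor of differentiation, was also called under YB-1 (0.38 ± 0.12). The list's median was 0.05 and 0.26 under YB-1 and HSP70, against 0.00 and 0.01 over all genes.

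Of 7 intermediate progenitor genes tested beside Eomes, none was called under YB-1 and 1 under HSP70, where 6.51% and 8.61% of all genes were. The called gene was Elavl4, an RNA-binding protein that mature neurons also express, which was lower in hippocampus by 0.96 on the log2 scale. Of 19 genes of immature neurons, 5 were called higher and 2 lower under YB-1, and 6 and 2 under HSP70. Over all genes, 3.3% were called higher and 3.21% lower under YB-1, and 4.85% and 3.76% under HSP70. Calb2 (calretinin), which marks young granule neurons and also mossy cells and interneurons, was at 86.1 ± 22.01 CPM in hippocampus and 16.8 ± 2.90 CPM in cortex with YB-1. Its log2 fold changes were 2.36 ± 0.21 under YB-1 and 2.17 ± 0.20 under HSP70. Prox1, a granule cell fate factor kept in mature granule cells and also on that list, had 2.63 ± 0.23 and 2.16 ± 0.22. The median of the list was 0.25 under YB-1 and 0.27 under HSP70.

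Of 12 mature dentate granule cell genes tested, 5 were called higher under each treatment and 0 and 2 lower under YB-1 and HSP70. The shares over all genes were 3.3% and 4.85% higher, and 3.21% and 3.76% lower, in the same order. C1ql2, a secreted synaptic protein, was at 136 ± 34.8 CPM in hippocampus and 10.5 ± 3.78 CPM in cortex with YB-1, with log2 fold changes of 3.68 ± 0.29 under YB-1 and 3.64 ± 0.29 under HSP70. Lct, the lactase gene, had 3.44 ± 0.27 and 3.53 ± 0.27. Of 12 genes of subventricular neuroblasts, which in the intact brain migrate to the olfactory bulb, 11 were tested. Under YB-1 2 were called lower and under HSP70 1, beside 3.21% and 3.76% of all genes, and Tshz1 was called under both.

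The counts of cell cycle and niche genes stand beside 6.51% of all genes called between tissues under YB-1 and 8.61% under HSP70, and with at most 1 call in each of these lists nothing is read from them. Of 15 S phase genes tested none was called between tissues in edgeR, and 2 had an unadjusted p under 0.05 under each treatment, where 16.7% of all genes under YB-1 and 20.1% under HSP70 did. Of 28 genes of G2 and M phase 11 were tested, and Anln, a cytokinesis protein also made by oligodendrocytes, was the 1 called, at 1.67 ± 0.28 under YB-1 and 1.38 ± 0.27 under HSP70. Of 12 oligodendrocyte precursor markers tested, 1 was called higher in hippocampus under YB-1 and 6 under HSP70, beside 3.3% and 4.85% of all genes. The list summed to 524 to 627 CPM in hippocampus against 398 to 452 CPM in cortex with YB-1. With HSP70 it summed to 506 to 773 CPM against 309 to 414 CPM, and none was at 0. No list of mature oligodendrocyte markers was examined. The part of oligodendrocyte precursors in the Anln value was not tested. Among 8 cell cycle inhibitors Cdkn1a (p21) was called lower under YB-1 (-0.72 ± 0.22). Among 21 niche signals Wnt3, a neurogenic ligand, was called higher under YB-1 (1.91 ± 0.56) and Sfrp1, a Wnt antagonist, lower under HSP70 (-0.97 ± 0.27).

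**Figure D5:**
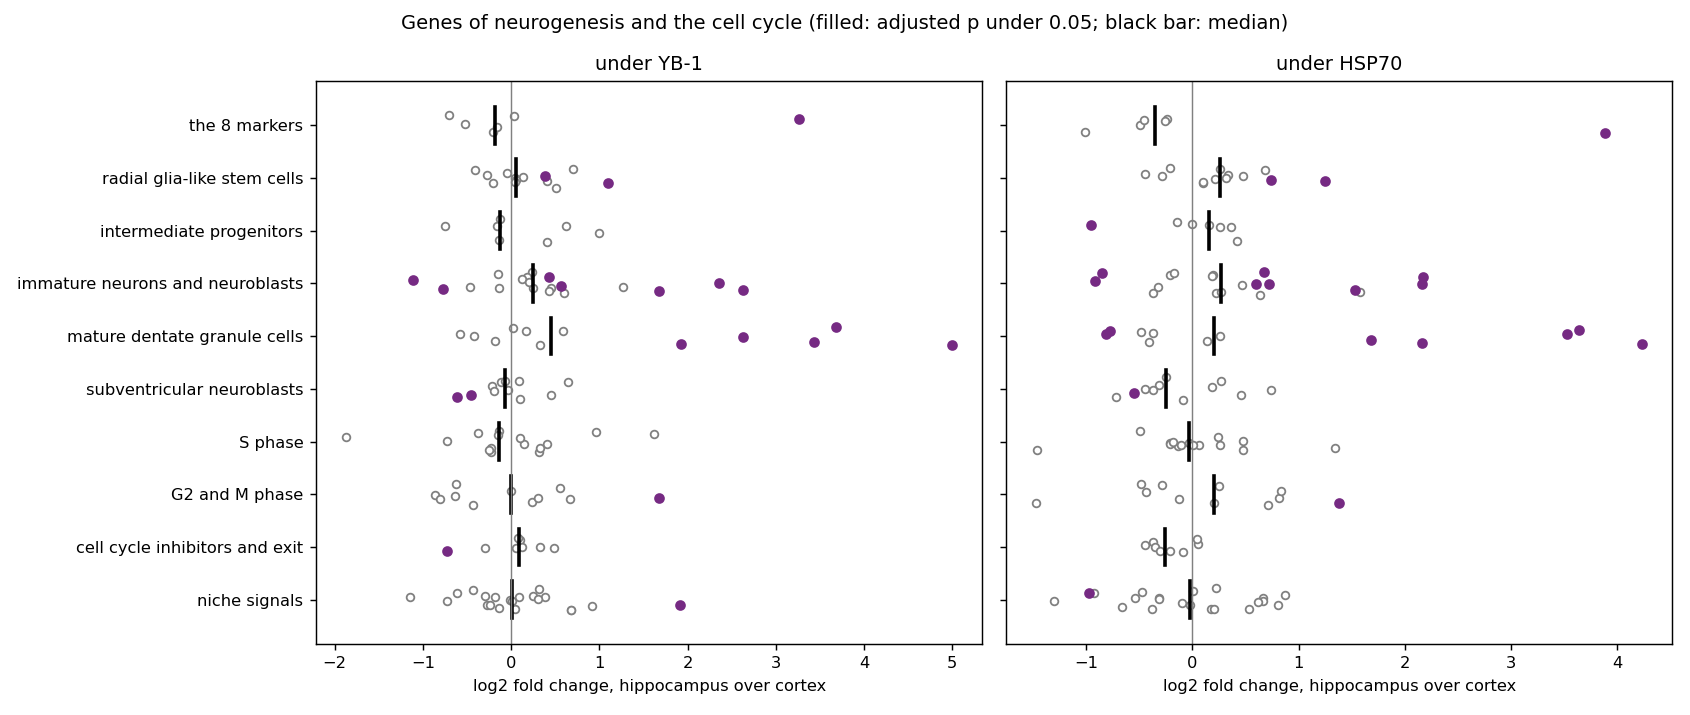
Log2 fold change, hippocampus over cortex (x axis), of each tested gene in the lists of the neurogenic lineage, cell cycle and niche (y axis), under YB-1 on the left and HSP70 on the right. Filled points passed an adjusted p of 0.05, open points did not, and the black bar is the median of the list. The filled points far to the right are granule cell, immature neuron and Igfbpl1 values, and the S phase row has no filled point.

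Between treatments no gene of these 9 lists was called. In hippocampus 10 of 12 granule cell genes had positive values, with a list median of 0.21 on the log2 scale against 0.00 over all genes. Lct was at 0.70 ± 0.23 there and Dsp, a desmosomal protein, at 0.99 ± 0.38. In cortex Lct was at 0.78 ± 0.31, while 4 of 11 tested granule cell genes had positive values and the list median was -0.21. Beside these, 8 of 8 meningeal fibroblast markers had negative values in hippocampus, with sums of 642 to 1254 CPM with YB-1 and 992 to 2028 CPM with HSP70, none at 0. All 6 tested T and NK cell markers had positive values there, with a median of 0.80 and sums of 14.1 to 29.4 CPM with YB-1 and 6.95 to 17.8 CPM with HSP70. Of 8 microglial markers 7 were positive (median 0.30), and 4 of 4 tested erythroid markers were negative (median -0.47). None of these was called, and their part in the other values was not tested. In the S phase list Mcm7, a helicase subunit, was at -0.50 ± 0.18 with 11.6 ± 2.12 CPM under YB-1 and 16.4 ± 2.09 CPM under HSP70. In cortex the cell cycle exit genes Tob1 and Btg2 were at -0.80 ± 0.30 and -0.70 ± 0.26, 4 of 8 genes of that list having an unadjusted p under 0.05, where 5.48% of all genes did. Of the 8 tested genes of G2 and M phase 6 had positive values in cortex, with a median of 0.50 against 0.01 over all genes. Foxm1, a transcription factor of G2 and M phase genes, was at 0.92 ± 0.39, with 2.92 ± 1.08 CPM under YB-1 and 1.52 ± 0.879 CPM under HSP70 (unadjusted p = 0.0312, adjusted 0.858 in edgeR). The cortical YB-1 library with the highest sum of that list was replicate 5, which was high in the immune lists above. Every adjusted p of the lineage and cell cycle genes named here was at least 0.858 in edgeR.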

How the data were processed

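Single-end poly(A) sequencing was carried out on 20 libraries, 4 groups of 5 by tissue and treatment. The deposited values are raw read counts per Ensembl gene, 1 table a library, with 55487 genes, and 12 summary lines of no gene were left out. The submitters' processing notes name the GRCm39 build, Trimmomatic, STAR and featureCounts. Not given in the sources used here are versions, annotation release and strand setting, so reads shared by overlapping or antisense genes are uncertain. Reads outside genes made up 2.45% to 4.58% and ambiguous reads 4.12% to 4.58%.

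Identifiers were matched to GENCODE M21 (99.4% matched, holding 99.98% of reads), which also gave exon lengths. Assigned reads per library ranged from 6414215 to 15148078, and edgeR 4.0.16 (R 4.3.3) was the test: TMM, filterByExpr, a robust quasi-likelihood fit, two-sided tests and Benjamini-Hochberg adjustment over all genes tested. Treatments were compared within each tissue, and tissues and the interaction in a fit of all 4 groups. CPM use TMM, and log2 CPM a prior count of 2. Correlations used 100000 two-sided permutations. DESeq2 1.42.0, limma 3.58.1 (voom with quality weights), RLE scaling, no filter, thinned counts, a replicate block and leaving out each library were alternatives. The code was tested on simulated data.

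The markers and 24 gene lists were chosen with earlier results of these data known. Of each list, the text names the 2 genes with the smallest p in a comparison, and of each marker the 3 genes with the most similar pattern; a few genes so chosen are left out of this account. Pairs of libraries within a group differed beyond counting noise, with a chi-square per degree of freedom of at least 10.1. Equal replicate numbers were taken to pair the tissues, since deviations from group means correlated over 0.1 in 5 of 5 pairs with YB-1 (0.207 to 0.394) and in 5 of 5 with HSP70 (0.198 to 0.624). Between treatments equal numbers were not taken as pairs. There the correlations ran from -0.283 to 0.496 in hippocampus, with 1 of 5 over 0.1, and from -0.135 to 0.167 in cortex, with 3 of 5 over 0.1.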

Additional observations from a re-analysis of the deposited data

Results flagged for a closer look

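Among 32 sets of 5 libraries (8 markers in 4 groups), 2 had 1 library far from the rest by Dixon's criterion, which chance alone meets in about 1 of 20. In cortex with HSP70, Igfbpl1 was at 0.797 CPM in replicate 5 and at 0.0692 CPM in the next library, a gap of 0.913 of the whole range. In hippocampus with YB-1, Sox4 was at 25.4 CPM in replicate 4 and at 16.8 CPM in the next library, a gap of 0.801 of the range; that library also had the lowest Sox11 of its group, 4.46 CPM.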

How the results depend on the processing

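Igfbpl1 was called between tissues in every alternative run, and no marker was called between treatments in any. In cortex 0 genes were called between treatments, against 4 with DESeq2, 1 with limma-voom, 9 with no filter on low counts and 1 on thinned counts, and 0 to 1 when 1 library was left out. Under HSP70, 1 marker was called between tissues, against 2 with DESeq2 and on thinned counts and 1 to 2 when 1 library was left out, the second being Sox4. Of the correlations, 1 passed and 0 without the 2 farthest libraries.

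Signs of uncalled values turned as follows; the cause was not tested. With limma-voom, YB-1 over HSP70 in hippocampus gave 0.055 for Dcx and -0.096 for Sox4, and in cortex 0.105 for Neurod1. Neurod1 was at 0.079 between tissues under HSP70 and -0.028 for the interaction. When 1 library was left out, log2 fold changes in hippocampus ran from -0.47 to 0.22 for Dcx, -0.57 to 0.15 for Igfbpl1, -0.093 to 0.18 for Sox4 and -0.091 to 0.31 for Neurod1, and in cortex from -0.35 to 0.12 for Neurod1. Between tissues they ran from -0.11 to 0.22 for Neurod1 under YB-1, and under HSP70 from -0.45 to 0.041 for Neurod1 and -1.10 to 0.17 for Top2a. The interaction ran from -0.010 to 0.49 for Neurod1, -0.89 to 0.58 for Top2a and -0.078 to 0.18 for Sox11.

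With the replicate block, 1224 genes were called between tissues under YB-1 against 952, and 1777 under HSP70 against 1259. Igfbpl1 was at 3.28 ± 0.75 and 4.08 ± 0.76 under YB-1 and HSP70, and the block changed no call of a marker. Between treatments, where equal numbers were not taken as pairs, the block called 0 genes in each tissue. There 1 of 5 hippocampal and 2 of 5 cortical libraries correlated best with their own number. Between tissues 4 of 5 did so with YB-1 and 5 of 5 with HSP70. Depth limits Eomes, Mki67 and Top2a, with a median of 3, 4 and 7.5 reads a library.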
